A study of Mus musculus with 6 samples.

Results

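The genes described here encode the alpha subunits of heterotrimeric G proteins other than Gs alpha: Gnal, Gnai1, Gnai2, Gnai3, Gnao1, Gnaz, Gnaq, Gna11, Gna12 and Gna13. All probes whose platform annotation gives one of these 10 symbols were taken, 25 of the 45281 probes on the array and 10 of 19057 annotated genes, and the rule goes by gene symbol alone. They were read in LβT2 cells, a mouse gonadotrope line derived from a pituitary tumour of transgenic mice, labelled with the strain CB6F1/J. For 48 h before collection, 3 samples carried a scrambled siRNA and 3 carried Gas siRNA, and their total RNA was measured on Illumina mouse whole-genome BeadChips, 1 array per sample. Gas was read as Gs alpha, the product of Gnas. No siRNA sequence is given in the labels, and they do not say whether the samples of a group were separate cultures. The p-values therefore reflect only the spread among these 6 samples, which may be technical.

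A heterotrimeric G protein consists of an alpha subunit, which binds and hydrolyses GTP, and a beta-gamma dimer. An activated receptor loads the alpha subunit with GTP, and alpha and beta-gamma then act on separate effectors. The alpha subunits form classes by effector: Gs alpha and its close relative Golf alpha (Gnal) stimulate adenylyl cyclase, the Gi/o class inhibits it and releases beta-gamma onto ion channels, the Gq/11 class activates phospholipase C beta, and the G12/13 class activates exchange factors of small GTPases. In gonadotropes the receptor for gonadotropin-releasing hormone is best known for signalling through Gq and G11. The comparison asks whether the transcripts of the other alpha subunits rose or fell in cells with less Gnas transcript.

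The targeted transcript was lower in the samples labelled Gas siRNA. The brightest Gnas probe (ILMN_2632206) had a normalized log2 intensity of 11.81 ± 0.057 with scrambled siRNA and 8.90 ± 0.062 with Gas siRNA (SD, n = 3 each), a 7.51-fold difference (log2 change -2.91, SE 0.0864, limma adjusted p = 3.94e-20). ILMN_1223437 fell 8.04-fold, and the other 5 Gnas probes tested did not pass. Of the 8 gonadotrope markers, 6 were measurable, among them Cga and Gnrhr with intensities between 14080 and 29440, while Fshb and Nr0b1 lay below the background bound on every array. Of the 7 markers of other pituitary cells, only Gh was measurable (145 to 185), and Pou1f1 has no probe. Among 5 stromal, endothelial and immune markers, the endothelial genes Pecam1 and Cdh5 were above background on all 6 arrays, and neither passed the test. Across all probes tested, 256 of 22363 changed (145 lower and 111 higher with Gas siRNA), 1.14%. Called probes numbered 147 without scrambled siRNA replicate 3, 167 without Gas siRNA replicate 2, 155 without Gas siRNA replicate 3, and 8 without modelling the variance along intensity.

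Of the 25 alpha subunit probes, 14 lay above the background bound, an intensity of about 142, on at least 3 arrays and were tested. They represent 8 of the 10 genes. Only 1 probe, the brightest of Gnaq, passed an adjusted p under 0.05, and it was lower with Gas siRNA, against 1.14% of all probes called in either direction and 0.648% called lower. No alpha subunit probe was called higher, against 0.496% of all probes. Of the 14 probes, 10 had a log2 difference below 0 (71.4%, against 49.2% of all probes tested), with a median of -0.069 against 0.0040 for all probes. Probes of the same gene are not independent. By the brightest probe of each of the 8 genes, 5 were below 0 and 3 above. The median absolute difference was 0.12 log2, as it was over all probes (0.12). At an unadjusted p under 0.05 there were 4 probes, where 9.84% of all probes reached it. For 4 of the 14 every array of one group lay above every array of the other, where 14.6% of all probes did so. Of these 3 were lower with Gas siRNA, against 7.34% of all probes, and 1 was higher, against 7.29%. In bulk RNA, fewer cells making a transcript and less transcript per cell cannot be told apart.

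**Figure D1:**
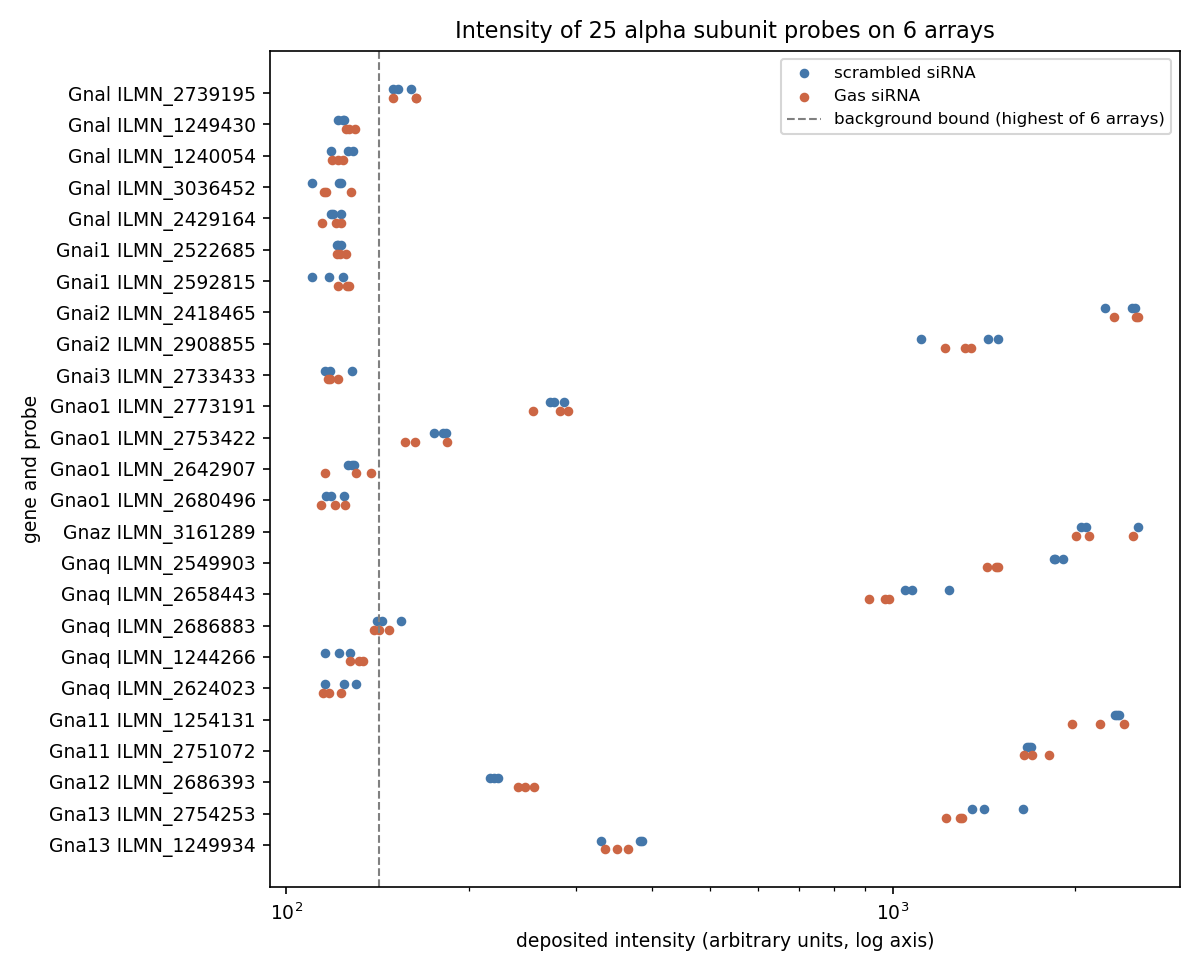
Deposited intensity (log axis) of each of the 25 alpha subunit probes on the 3 scrambled siRNA arrays (blue) and the 3 Gas siRNA arrays (red); the dashed line is the highest background bound of the 6 arrays. Gnai1 and Gnai3 lie below the bound throughout, and the other 8 genes have at least 1 probe above it.

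The Gq/11 class is given first, because it holds the probe that changed. Gnaq encodes Gq alpha, the activator of phospholipase C beta. Its brightest probe (ILMN_2549903) read 10.81, 10.76 and 10.77 log2 with scrambled siRNA and 10.42, 10.43 and 10.36 with Gas siRNA. Every Gas siRNA array thus lay below every scrambled siRNA array, with little spread inside either group. The log2 change was -0.37 (SE 0.0828, 95% confidence interval -0.54 to -0.20, limma adjusted p = 0.0152), a 1.30-fold lower level. ILMN_2549903 is annotated to a different record from the RefSeq transcript of Gnaq. ILMN_2658443, annotated to that RefSeq transcript, read 10.14, 9.91 and 9.87 with scrambled siRNA and 9.74, 9.77 and 9.65 with Gas siRNA. Its groups did not overlap either, but its difference of -0.25 (SE 0.0966, interval -0.45 to -0.052) did not pass (adjusted p = 0.318). A further probe of the RefSeq transcript, near background and above the bound on 2 arrays of each group, differed by -0.13 (adjusted p = 0.917). The other 2 Gnaq probes were below the bound on all 6 arrays. No tested probe annotated to the RefSeq transcript of Gnaq passed.

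The call on Gnaq depended on having all arrays and on the variance model. Of the scrambled siRNA arrays, leaving out replicate 1 (adjusted p = 0.0585) or replicate 3 (0.0545) ended the call, and leaving out replicate 2 did not (0.0430). Of the Gas siRNA arrays, leaving out replicate 1 (0.0535), replicate 2 (0.0543) or replicate 3 (0.0751) ended it. The difference stayed between -0.39 and -0.35 in all 6 of these fits. The call was also lost without the intensity trend (0.313) and with the 3 tested Gnaq probes averaged (-0.25, SE 0.0928, adjusted p = 0.321).

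Gna11 encodes G11 alpha, which couples largely the same receptors to phospholipase C beta as Gq alpha. Its brightest probe read 11.11, 11.13 and 11.12 with scrambled siRNA and 11.16, 11.03 and 10.86 with Gas siRNA. The groups overlapped, because Gas siRNA replicate 1 was above all scrambled siRNA arrays and Gas siRNA replicate 3 below them. The difference was -0.10 (interval -0.28 to 0.069, adjusted p = 0.768). The other Gna11 probe differed by 0.034 (interval -0.14 to 0.20), so the intervals of the 2 probes reach to a 1.21-fold fall and a 1.15-fold rise. The log2 difference of the brightest Gnaq probe, which was singled out here for its call, lay 0.27 and 0.41 below those of the Gna11 probes and 0.12 and 0.25 below those of the other tested Gnaq probes. These are descriptions, since 3 against 3 arrays allow no exact permutation p under 0.1.

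The start regions of these paralogs are shown because one changed on its brightest probe and the other did not pass on either. The sequences are the 250 bases upstream of the gene start from RefSeq (GRCm38.p6), written 5′ to 3′ on the strand of the gene, with matches to GGGCGG on either strand (the GC box, CCGCCC when read from the other strand) in capitals.
Gnaq, chr19:16132434-16132683, plus strand: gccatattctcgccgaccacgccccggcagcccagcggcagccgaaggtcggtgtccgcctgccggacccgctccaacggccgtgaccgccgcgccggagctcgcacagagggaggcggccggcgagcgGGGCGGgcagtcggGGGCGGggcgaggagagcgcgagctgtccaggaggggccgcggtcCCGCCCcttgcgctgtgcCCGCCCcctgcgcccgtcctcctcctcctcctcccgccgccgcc
Gna11, chr10:81545163-81545412, minus strand: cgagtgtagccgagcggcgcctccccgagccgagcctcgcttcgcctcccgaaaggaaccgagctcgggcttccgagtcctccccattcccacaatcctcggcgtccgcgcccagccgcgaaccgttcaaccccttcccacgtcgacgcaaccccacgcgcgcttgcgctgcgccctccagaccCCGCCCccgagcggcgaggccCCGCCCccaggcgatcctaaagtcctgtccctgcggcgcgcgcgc

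The Gnaq window holds 4 GC boxes and is 79.2% G and C, and the Gna11 window holds 2 and is 73.2% G and C, where the median over 32851 RefSeq promoter windows of this length is 52.4%. A GC box occurs in 32.7% of those windows. Neither window holds the cAMP response element TGACGTCA (1.55% of all windows), its core TGACG (17.8%), CCAAT (33.8%) or TATAAA (12.4%), searched on both strands, where TGACG lies within TGACGTCA. Windows were found for 7 of the 10 genes, and none of the 7 matched TGACGTCA, TGACG or TATAAA. In the remaining windows GC boxes numbered 4 for Gna12, 3 for Gnai1, 2 for Gna13 and 0 for Gnai3 and Gnao1. The Gnai1 window is also 79.2% G and C. These matches describe letters in the windows and were not tied to any binding measurement.

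The G12/13 class was measured on 3 probes, of which none passed. Gna12, encoding G12 alpha, read 6.80, 6.71 and 6.75 log2 with scrambled siRNA and 7.17, 7.01 and 7.08 with Gas siRNA on its only probe. All Gas siRNA arrays were above all scrambled siRNA arrays, in deposited intensities between 216 and 256. The difference of 0.34 (SE 0.158, interval 0.013 to 0.66) had an unadjusted p of 0.0421 and did not pass (adjusted p = 0.482). This interval reaches up to a 1.58-fold rise, the highest upper end among the brightest probes of the 8 genes. On log2 of the deposited intensities, which still hold the background, the difference was 0.17. Gna13, encoding G13 alpha, read 10.27, 10.35 and 10.58 with scrambled siRNA and 10.12, 10.21 and 10.22 with Gas siRNA on its brightest probe. Here the groups were apart in the opposite direction, with scrambled siRNA replicate 3 the highest array. The difference of -0.22 (SE 0.0926, interval -0.41 to -0.031) did not pass (adjusted p = 0.388) and was -0.13 without scrambled siRNA replicate 3. The dimmer Gna13 probe differed by -0.087 (interval -0.36 to 0.19), with overlapping groups.

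**Figure D2:**
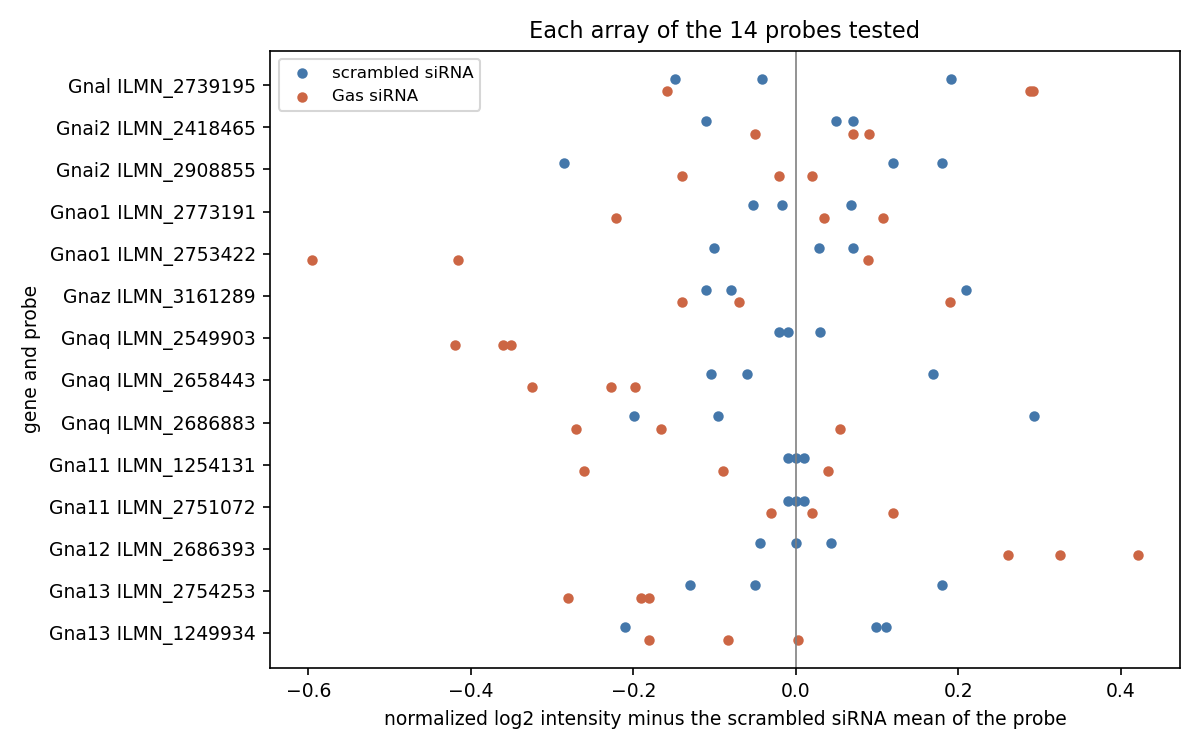
Normalized log2 intensity of each array minus the scrambled siRNA mean of the same probe, for the 14 alpha subunit probes tested, with scrambled siRNA in blue and Gas siRNA in red (3 arrays each). The groups are apart for the brightest and second brightest Gnaq probes, for Gna12 and for the brighter Gna13 probe, and overlap for the other 10.

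The Gi/o class holds the inhibitors of adenylyl cyclase, the enzyme that Gs alpha stimulates. Gnai2, encoding Gi2 alpha, read 11.05, 11.23 and 11.21 with scrambled siRNA and 11.25, 11.23 and 11.11 with Gas siRNA on its brightest probe. The groups overlapped and the difference was 0.033 (SE 0.0815, interval -0.13 to 0.20, adjusted p = 0.941). The interval leaves room for a rise of up to 1.15-fold or a fall of up to 1.10-fold. The other Gnai2 probe, with scrambled siRNA replicate 1 lowest at 9.97, differed by -0.052 (interval -0.26 to 0.16). Gnaz encodes Gz alpha, a Gi/o member insensitive to pertussis toxin. It read 10.95, 11.24 and 10.92 with scrambled siRNA and 10.89, 11.22 and 10.96 with Gas siRNA on its only probe. Replicate 2 was the highest in each group by about as much, and the difference between groups was -0.013 (SE 0.0952, interval -0.21 to 0.18), which leaves room for changes of up to 1.13-fold upward or 1.15-fold downward.

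Gnao1 encodes Go alpha, abundant in neurons and endocrine cells. Its brightest probe read 7.36, 7.45 and 7.33 with scrambled siRNA and 7.41, 7.49 and 7.16 with Gas siRNA, with overlapping groups and a difference of -0.026 (interval -0.33 to 0.28, adjusted p = 0.974). A dimmer Gnao1 probe of the same RefSeq transcript, at intensities between 157 and 184, read 5.99, 6.16 and 6.12 against 5.67, 6.18 and 5.49. Gas siRNA replicates 1 and 3 were lower and replicate 2 was not, and the difference of -0.31 (SE 0.207, interval -0.73 to 0.12) did not pass. It was -0.10 on log2 of the deposited intensities, -0.51 without Gas siRNA replicate 2 and -0.16 without Gas siRNA replicate 3. The other 2 Gnao1 probes, annotated to a different record, were below the bound on all 6 arrays. Both Gnai1 probes and the only Gnai3 probe, for the other Gi alpha subunits, were not well above background on any array, with intensities between 110 and 128, so no difference is given for these genes.

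Gnal encodes Golf alpha, the closest relative of Gs alpha and like it a stimulator of adenylyl cyclase. Of its 5 probes 1 was above background, ILMN_2739195, at intensities between 150 and 164. It read 5.25, 5.59 and 5.36 with scrambled siRNA and 5.70, 5.25 and 5.69 with Gas siRNA. Gas siRNA replicates 1 and 3 were above all scrambled siRNA arrays, and replicate 2 was the lowest array. The difference of 0.14 (SE 0.219, interval -0.31 to 0.59, adjusted p = 0.898) did not pass, and its interval reaches to a 1.50-fold rise. It was 0.042 on log2 of the deposited intensities, and between 0.066 (without Gas siRNA replicate 1) and 0.29 (without Gas siRNA replicate 2) when single arrays were left out. The other Gnal probes lay between 110 and 130 on all arrays. They include another probe of the same RefSeq transcript and every probe annotated to a different RefSeq transcript of Gnal. Of 4 markers of olfactory neurons, where Golf alpha is the main stimulatory alpha subunit, Omp rose by 0.97 log2 (adjusted p = 1.41e-06), Gng13 differed by 0.087 (adjusted p = 0.847), and Cnga2 was below the bound on all arrays and Adcy3 on at least 4 of 6. The summed intensity of the list was 1665 to 1787 with scrambled siRNA and 2045 to 2402 with Gas siRNA, of which Omp was the only marker that passed (605 to 1242 over the 6 arrays). Omp and Gnal were read on separate probes, and a link between them was not tested.

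**Figure D3:**
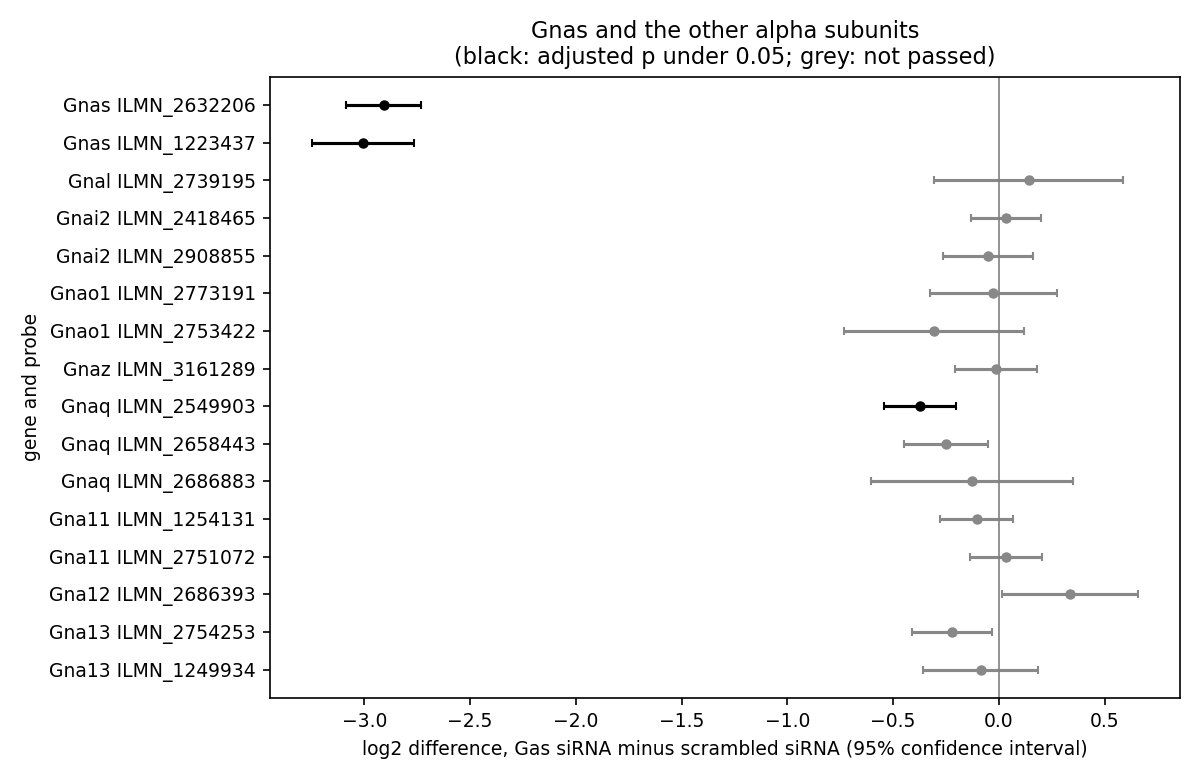
Log2 difference, Gas siRNA minus scrambled siRNA, with its unadjusted 95% confidence interval for the 2 brightest Gnas probes and the 14 alpha subunit probes tested. Gnas lies near -3, the brightest Gnaq probe at -0.37 is the only other probe past an adjusted p of 0.05 (black), and all others (grey) lie between -0.31 and 0.34.

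Across the classes, the brightest probes of 5 genes were below 0 and those of 3 above. All tested probes of Gnao1, Gnaz, Gnaq and Gna13 were below 0, those of Gnal and Gna12 above, and Gnai2 and Gna11 had probes on both sides. Among the brightest probes of the 7 genes where these did not pass, the intervals reached at most to a 1.58-fold rise (Gna12) and a 1.33-fold fall (Gna13), against the 7.51-fold fall of Gnas. The interval of the dimmer Gnao1 probe reached further down, to a 1.66-fold fall.

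Genes whose arrays most resembled those of the brightest Gnaq probe were sought among 11387 named genes, by the root mean square difference of the 6 log2 values after centring each probe on its own mean. They were Cmtr1, an mRNA cap methyltransferase gene (0.0295 log2), Fads1, a fatty acid desaturase gene (0.0297), and Ass1, encoding argininosuccinate synthase (0.0311). Their log2 changes were -0.38, -0.35 and -0.36, close to the Gnaq value that the search used.

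The other genes of the G protein cycle were read from 9 lists, by the brightest tested probe of each gene. Of 53 measured genes 5 were called lower, 0 were called higher and 48 did not pass. Of all 11750 genes, 1.63% were called in either direction and 0.928% were called lower, while 83 genes were called higher. The lists were chosen with earlier results of these data known, so these counts are descriptions. Among the 5 remaining alpha subunit genes, Gnat1, Gnat2 and Gnat3 (the transducins and gustducin) were measurable near background and did not pass (differences of 0.24, 0.29 and 0.36). Gna14, which lies next to Gnaq in the RefSeq gene table and encodes a relative of Gq alpha, was below the bound on all arrays, and Gna15, next to Gna11, was above it on 2 of 6.

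Of 14 measured beta and gamma subunit genes 2 fell and 12 did not pass, with a median of -0.031. Gng2 fell by 0.53 (adjusted p = 3.40e-04), also on its other probe, and Gng4 fell by 0.45 (0.0194). Among 11 RGS genes, whose products speed GTP hydrolysis by alpha subunits, Rgs16, which acts on Gi/o and Gq alpha, fell by 0.55 (0.00377) and 10 did not pass. Of 6 receptor kinase genes sought by symbol, 4 were found on the array, and Adrbk1 and Adrbk2 matched no symbol. Of the 2 that were measured, Grk5 fell by 0.42 (0.0131). Of 6 effector genes of Gq and G11, Kalrn, which encodes a guanine nucleotide exchange factor, fell by 0.51 (0.0402). Another Kalrn probe was also called lower (-0.65, 0.0463), and one near background was not (-0.60, 0.339). The phospholipase C genes Plcb2, Plcb3 and Plcb4 did not pass. The Plcb2 probe lay near background (133 to 159), and Plcb1 was below the bound on all arrays. None of the 5 adenylyl cyclase genes, 4 G12/13 effector genes, 5 chaperone and exchange factor genes or 3 beta-gamma effector genes passed. The smallest adjusted p in these lists belonged to Adcy5 (-0.22, 0.841), Rock1 (-0.12, 0.874), Gpsm2 (-0.20, 0.788) and Kcnj3 (0.12, 0.907). The Adcy5 and Adcy1 probes lay near background (intensities of 134 to 149 and 136 to 155), and the brightest Adcy6 probe between 386 and 441. All 5 calls were lost without the intensity trend, where the log2 changes are the same by construction. With the tested probes of a gene averaged, Grk5 (-0.41, adjusted p = 0.0644) and Kalrn (-0.59, 0.0562) no longer passed. For Gng4 the call also ended when replicate 1 or 2 of scrambled siRNA or replicate 3 of Gas siRNA was left out (adjusted p up to 0.141). For Rgs16 it ended without scrambled siRNA replicate 2 (0.0532), and for Grk5 when replicate 3 of scrambled siRNA or replicate 1 or 3 of Gas siRNA was left out (up to 0.0789). For the brightest Kalrn probe the call ended without each array in turn other than Gas siRNA replicate 2 (up to 0.177). It also ended with no filter on dim probes (0.0576).

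**Figure D4:**
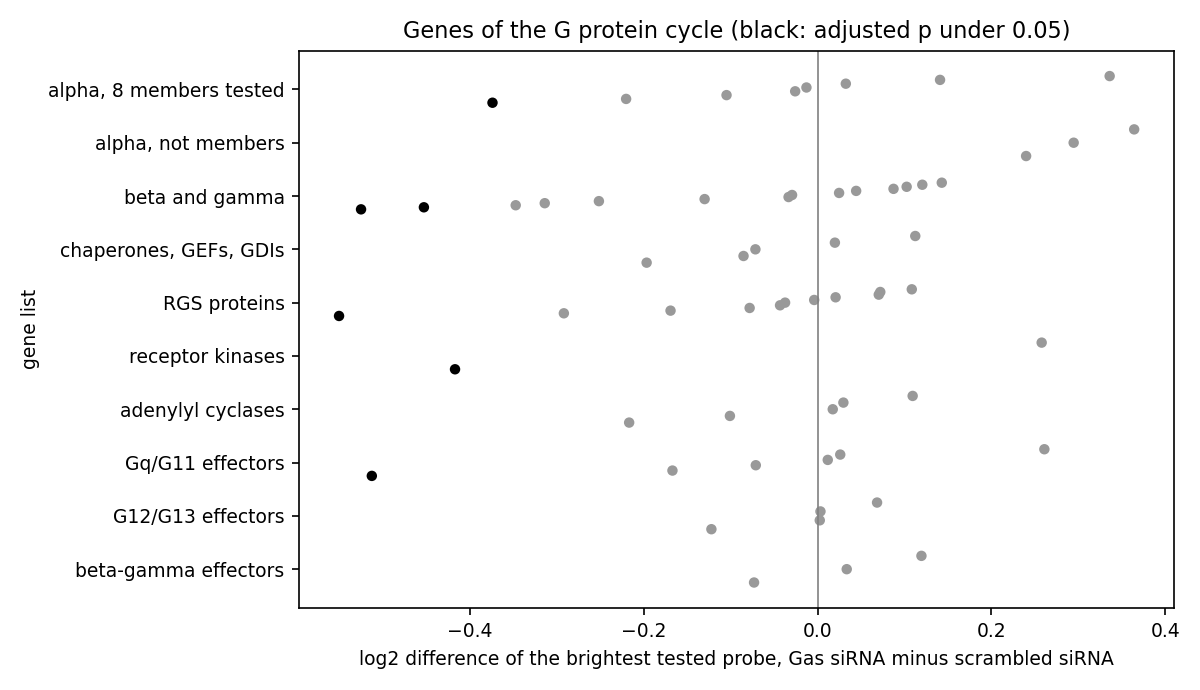
Log2 difference of the brightest tested probe of each gene (points), Gas siRNA minus scrambled siRNA, for the 8 alpha subunit genes tested and 9 further lists of the G protein cycle. Black points passed an adjusted p of 0.05; these are Gnaq, Gng2, Gng4, Rgs16, Grk5 and Kalrn, all below 0.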

How the data were processed

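The linear intensity values that the authors deposited for each probe and array were used, made with BeadStudio per the submitters' processing notes. Their normalization was not given in the sources used here. Columns, once sorted, differed by at most 1.67% below the 10 brightest probes, so their distributions nearly matched. No value was under 97.6, so a background remained in the values. The method that left this was not tested. A table of signals before normalization has 24 columns that match no sample's labels and was not used, so array positions and detection values were not used either. The background of each array came from the mode of its log2 density (about 128) and the SD below it (8.49 to 8.71). Normexp with an offset of 16, quantile normalization and log2 followed. Probes above the 95th percentile of background (142) on at least 3 of 6 arrays were kept, 22363 in all. The 2-sided test was that of limma 3.58.1 (R 4.3.3), by lmFit and by eBayes with the variance modelled along intensity (the intensity trend), and p-values were adjusted by Benjamini-Hochberg over all kept probes. Confidence intervals are unadjusted. A gene was represented by its brightest kept probe. Levels of different probes were not compared. The number of arrays limits the precision.

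Members and lists were chosen with earlier results of these data known. Named genes were all members, Gnas, up to 4 called genes per list or its smallest p, and the 3 genes most like a called member. Same-numbered arrays of the groups correlated at 0.016, 0.055 and 0.089 in their deviations, and differently numbered arrays at -0.075 to 0.021. All were below 0.1, so numbers were not taken as pairs, though the same-numbered values were all above 0. Whether the numbers mark pairs was not tested. With the replicate number as a block, 429 probes were called, against 256 without it. Simulated arrays of 22363 probes had 200 changed ones. Changes of 0.5, 1 and 2 log2 were recovered in 41.1%, 92.3% and 100% of probes changed by that much. Of 160 calls 8 were false. All alpha subunit differences were smaller than 0.5 log2, so recovery at their sizes was not tested.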

Additional observations from a re-analysis of the deposited data

How the results depend on the processing

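The alpha subunit count of 1 probe (Gnaq) was the same with log2 of the deposited values, median scaling, no filter, a filter on all 6 arrays and array weights. It was 0 without the intensity trend and with probes averaged per gene, and between 0 and 1 without single arrays. With the replicate number as a block it stayed 1 (Gnaq adjusted p = 0.00492), while the count over all probes was 429. That count was 8 without the trend and between 147 and 208 without single arrays. The 5 calls in the further lists became 3 with probes averaged, as Grk5 and Kalrn kept their size and lost their calls. The difference of the brightest Gnas probe ranged from -2.94 to -2.87 without single arrays and was -2.65 on log2 of the deposited values. With the tested Gnas probes averaged, dim ones that did not pass among them, the Gnas difference was -1.12 (limma adjusted p = 4.27e-04). On log2 of the deposited values, which still hold the background, differences of dim probes were smaller (Gna12 0.17, Gnal 0.042, the dimmer Gnao1 probe -0.10, the dim Gnaq probe -0.034). Without single arrays the sign turned for probes near 0: Gnai2 (-0.022 to 0.077 and -0.20 to 0.035), Gnao1 (-0.093 to 0.072), Gnaz (-0.11 to 0.091), the dim Gnaq probe (-0.23 to 0.020) and the dimmer Gna11 probe (-0.0065 to 0.067). None of these passed. Signal near background limits Gnal, the dim Gnaq and Gnao1 probes, Gnai1 and Gnai3.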
